A study of Mus musculus with 8 samples.

Results

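The genes described here are the platelet-derived growth factor (PDGF) receptors Pdgfra and Pdgfrb and the ligands Pdgfa, Pdgfb, Pdgfc and Pdgfd. They were taken by gene name, and all 6 had a single row among the 53801 genes of the deposited table. RNA came from stromal cells of the small intestine of LTβRYFP mice, sorted by flow cytometry as negative for CD45, a blood cell marker, and CD31, an endothelial marker. Cells with the YFP signal (YFP+) were compared with cells of the same gate without it (YFP-), in 4 libraries each, to ask how stroma carrying the marker differs in RNA. Every mouse carried the LTβRYFP allele, and the labels give no age, sex or pooling of animals and do not tie replicates to different animals. The p-values therefore reflect just the variation among these libraries, which may be technical. For each of the 8 samples, title and description contradict each other on the sign of YFP, and the genotype sides with the description. YFP+ and YFP- below follow the description, the genotype and the count columns, which are named pos and neg. If the titles are the correct ones, every direction given here is reversed.

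PDGFs are secreted dimers that activate a pair of receptor tyrosine kinases. PDGF-A and PDGF-C act mainly through PDGFRα, PDGF-D mainly through PDGFRβ, and PDGF-B through both. In the developing gut, PDGF-A from the epithelium signals to PDGFRα-bearing mesenchyme that shapes the villi, while PDGF-B from endothelium recruits PDGFRβ-bearing pericytes to vessels. PDGF-C and PDGF-D are released in a latent form that proteases must cut before they bind.

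Library totals ran from 23404630 to 29829232 counts in YFP+, against 23272858 to 28688906 counts in YFP-. Levels are given as CPM, counts scaled to a TMM-adjusted library total of 1000000. Both markers of the gate were low. Ptprc, which encodes CD45, ranged from 0.535 to 6.22 CPM in YFP+, against 0.907 to 5.66 CPM in YFP-, and Pecam1, which encodes CD31, from 2.63 to 7.07 CPM in YFP+, against 5.11 to 11.8 CPM in YFP-. Summed over 5 general fibroblast genes the level was 32761 to 36463 CPM in YFP+, against 38041 to 45215 CPM in YFP-. Ltbr, the gene of the lymphotoxin beta receptor that names the allele, averaged 56.6 ± 1.27 CPM in YFP+, against 52.4 ± 6.85 CPM in YFP- (SD, n = 4 each), with an adjusted p of 0.396 in edgeR's quasi-likelihood test, and so gave no check of the labels.

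Of the 4 ligand genes 3 were lower in YFP+, and 1 of the receptor genes was higher. Pdgfa, Pdgfc and Pdgfd fell by 0.72, 0.51 and 0.30 on the log2 scale, Pdgfrb rose by 0.29, and Pdgfra did not differ detectably. Pdgfb had by far the widest gap, with a log2 fold change of -4.07, but also the widest error, and did not pass. The test was edgeR's quasi-likelihood test with equal replicate numbers taken as pairs and Benjamini-Hochberg adjustment over 16354 genes at 0.05. It called 3 of 6 members lower and 1 of 6 higher, where 7.85% and 3.65% of all tested genes were called in those directions. In the same test without the pairing, which called 4.26% of genes (3.34% lower and 0.917% higher), the 4 calls were lost and Pdgfb passed. In bulk RNA, fewer cells of a type and less RNA per cell cannot be told apart.

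**Figure D1:**
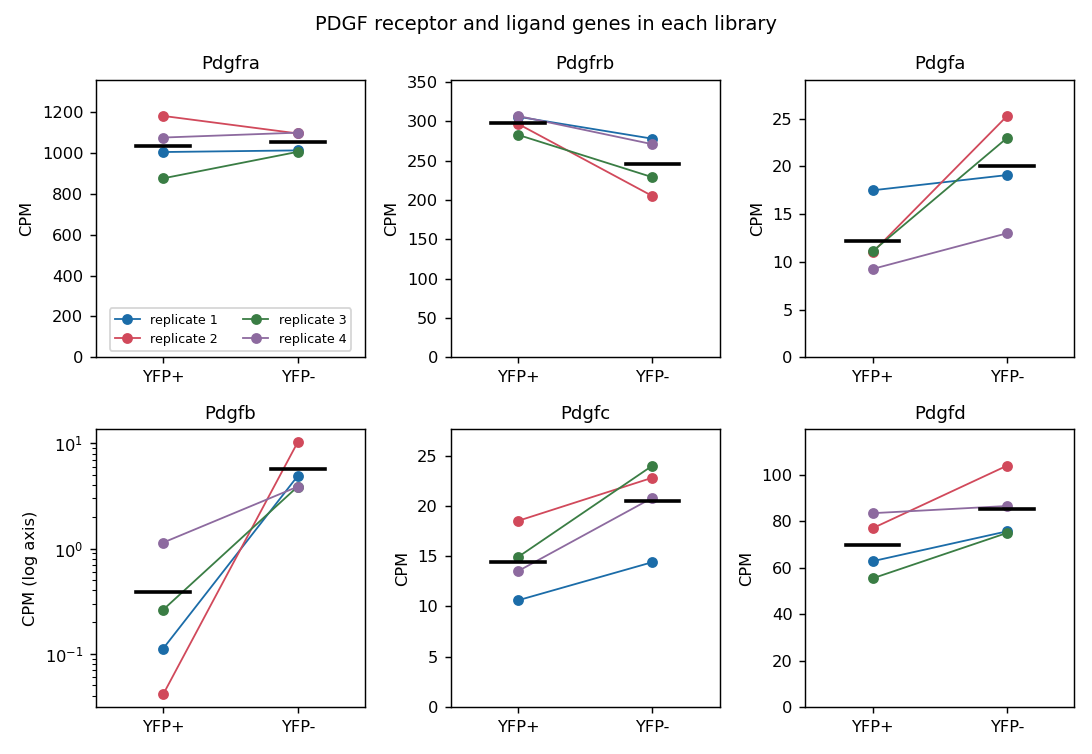
CPM of each receptor and ligand gene in the 4 YFP+ and 4 YFP- libraries; lines join libraries with the same replicate number, black bars are group means, and the Pdgfb axis is logarithmic. All 4 lines run higher in YFP+ for Pdgfrb and lower in YFP+ for each ligand, while those of Pdgfra cross.

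**Figure D2:**
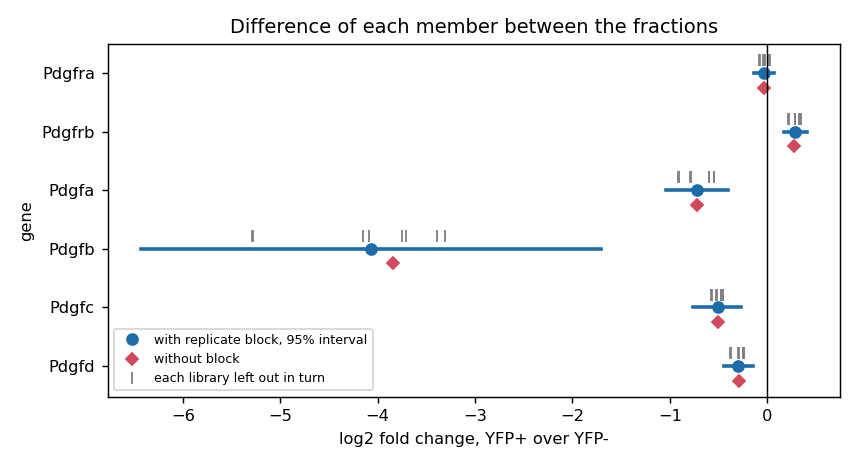
Log2 fold change (YFP+ over YFP-) of each member, with the 95% interval from the test with replicate pairs, the estimate without pairs, and the estimates with each library left out. The Pdgfb interval runs from -6.43 to -1.71, and that of Pdgfra spans 0.

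Pdgfra, the receptor of PDGF-A and PDGF-C and a marker of gut fibroblasts, was abundant in both fractions. It had 1006, 1183, 877 and 1077 CPM in YFP+ replicates 1 to 4, against 1014, 1097, 1007 and 1101 CPM in YFP-. The groups overlapped, with the highest and the lowest value both in YFP+. Its log2 fold change was -0.03 (SE 0.05, edgeR's adjusted p = 0.758), and the 95% interval of -0.14 to 0.07 bounds the difference that these libraries allow. Pdgfra (ENSMUSG00000029231) lies on the plus strand of chromosome 5 from 75152292 to 75198215 (GRCm38). Markers of fibroblast subsets, which carry it at different levels, moved in both directions. Of 8 tested subepithelial fibroblast genes, a population known for high Pdgfra, 3 were higher and 1 lower, with summed levels of 473 to 844 CPM in YFP+, against 479 to 898 CPM in YFP-. Without the pairing 2 were higher and 0 lower. Foxl1, a defining gene of that list, had 0 counts in all 8 libraries, which allows a level of up to 0.129 CPM in the shallowest. All 5 crypt-base fibroblast genes, from cells known for low Pdgfra, were lower, with sums of 809 to 907 CPM in YFP+, against 1095 to 1297 CPM in YFP-, and 4 were so without the pairing. Of 5 adventitial fibroblast genes 4 were lower, 3 of them without the pairing, with sums of 2167 to 2363 CPM in YFP+, against 2574 to 3021 CPM in YFP-. Most of that sum was Col14a1, which averaged 1846 CPM in YFP+, against 2292 CPM in YFP-. All 5 general fibroblast genes were lower as well, 2 of them without the pairing. The part of these shifts in the Pdgfra level was not tested.

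Pdgfrb, the receptor of PDGF-B and PDGF-D and a marker of pericytes that many fibroblasts also express, was the member that rose. It had 306, 297, 283 and 307 CPM in YFP+ replicates 1 to 4, against 278, 205, 229 and 271 CPM in YFP-. The groups did not overlap, which 9.64% of tested genes did not in either direction and 3.78% with YFP+ higher, and YFP+ was higher in 4 of 4 pairs. The log2 fold change was 0.29 (SE 0.06, edgeR's adjusted p = 0.00142), or 0.28 without the pairing (SE 0.10, edgeR's adjusted p = 0.136). The pair ratios ran unevenly, at 0.14, 0.53, 0.31 and 0.18 on the log2 scale for pairs 1 to 4. Pdgfrb (ENSMUSG00000024620) lies on chromosome 18 from 61045150 to 61085061 on the plus strand.

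Pericyte genes moved in both directions beside Pdgfrb. Of 7 tested, Cspg4, the NG2 proteoglycan, rose (log2 fold change 0.66, edgeR's adjusted p = 3.98e-09), Mcam and Steap4 were lower, and Rgs5, the most abundant, had 0.09 (edgeR's adjusted p = 0.277). The summed pericyte level was 1224 to 1436 CPM in YFP+, against 1107 to 1278 CPM in YFP-. Of 8 smooth muscle genes 7 rose, with summed levels of 362 to 878 CPM in YFP+, against 187 to 465 CPM in YFP-, and 2 of these calls were made without the pairing. No marker of either list was at 0 in all libraries, and their part in the Pdgfrb result was not tested.

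The receptors were also set against each other within each library. Pdgfra exceeded Pdgfrb in CPM by 3.28, 3.98, 3.10 and 3.50 times in YFP+ replicates 1 to 4, against 3.64, 5.34, 4.40 and 4.06 times in YFP-. These multiples are not corrected for exonic length, 10024 bases for Pdgfra and 5478 for Pdgfrb, so they overstate the excess per length. The ratio was lower in YFP+ in 4 of 4 pairs, though the groups overlapped. On the log2 scale it averaged 1.79 ± 0.15 in YFP+, against 2.11 ± 0.23 in YFP- (SD, n = 4 each), a difference of -0.32. An exact two-sided permutation test over the 70 arrangements of libraries gave p = 0.0571, where 0.0286 was the smallest it could give.

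Pdgfd, a ligand of PDGFRβ, was the most abundant ligand gene. It had 62.8, 77.0, 55.4 and 83.5 CPM in YFP+ replicates 1 to 4, against 75.7, 104, 75.0 and 86.6 CPM in YFP-. The groups overlapped, but YFP+ was lower in 4 of 4 pairs, least in pair 4. Its log2 fold change was -0.30 (SE 0.07, edgeR's adjusted p = 0.00542), or -0.29 without the pairing (edgeR's adjusted p = 0.337). The call was also lost without YFP+ replicate 3, YFP- replicate 3 or YFP- replicate 2, with adjusted p of 0.0937, 0.0999 and 0.0563. Pdgfd (ENSMUSG00000032006) lies on the plus strand of chromosome 9 from 6168584 to 6378850.

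Pdgfc, a ligand of PDGFRα, had 10.6, 18.5, 14.9 and 13.5 CPM in YFP+ replicates 1 to 4, against 14.4, 22.8, 24.0 and 20.8 CPM in YFP-. YFP- replicate 1 lay among the YFP+ values, while within pairs YFP+ was lower in 4 of 4. The log2 fold change was -0.51 (SE 0.12, edgeR's adjusted p = 0.00384), or the same size without the pairing (SE 0.18, edgeR's adjusted p = 0.158). Without YFP+ replicate 3 or YFP- replicate 3 the adjusted p was 0.0563 and 0.0660. Pdgfc (ENSMUSG00000028019) lies on the plus strand of chromosome 3 from 81036416 to 81214040.

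The 250 bases before the RefSeq start (GRCm38.p6, plus strand) are shown for Pdgfc and Pdgfd, each called lower with the pairing. Capitals mark matches to any of 6 motifs searched on both strands: the SP1 box GGGCGG, the TATA box TATAAA, the AP-1 site TGANTCA, the EGR1 site GCGNGGGCG, which can share bases with the SP1 box, and the CArG box and NF-kB site by their usual patterns. The Pdgfc window is chr3:81036166-81036415 and the Pdgfd window chr9:6168236-6168485.
Pdgfc: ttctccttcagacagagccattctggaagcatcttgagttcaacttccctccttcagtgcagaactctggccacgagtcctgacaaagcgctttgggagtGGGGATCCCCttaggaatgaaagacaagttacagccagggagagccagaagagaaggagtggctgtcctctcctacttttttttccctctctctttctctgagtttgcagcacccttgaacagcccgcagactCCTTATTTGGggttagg
Pdgfd: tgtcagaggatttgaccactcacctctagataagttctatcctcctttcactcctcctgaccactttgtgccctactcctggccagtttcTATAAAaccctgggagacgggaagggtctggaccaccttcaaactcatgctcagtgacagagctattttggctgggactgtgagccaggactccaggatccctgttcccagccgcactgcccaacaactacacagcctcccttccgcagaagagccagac
In Pdgfc the capitals are an NF-kB pattern at positions -150 to -141 from the start and a CArG box, the motif of serum response factor, at -17 to -8. The patterns do not overlap. In Pdgfd the capitals are a TATA box at -160 to -155. Among 32851 promoter windows of this length, 7.25% held the NF-kB pattern, 1.47% the CArG box and 12.4% the TATA box. A match describes the letters alone. Promoter windows were found for 4 of 6 members, and both of those for Pdgfa overlapped annotated exons and are not shown.

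Pdgfa, the PDGFRα ligand made by gut epithelium, had 17.5, 11.0, 11.1 and 9.25 CPM in YFP+ replicates 1 to 4, against 19.1, 25.3, 23.0 and 13.0 CPM in YFP-. The groups overlapped through a high YFP+ replicate 1 and a low YFP- replicate 4, and YFP+ was lower in 4 of 4 pairs. The pair log2 ratios were -0.13, -1.20, -1.05 and -0.49. The log2 fold change was -0.72 (SE 0.15, edgeR's adjusted p = 0.00265), and without the pairing the adjusted p was 0.119 (SE 0.23). Of 9 tested epithelial genes 5 were lower, with summed levels of 19.7 to 27.7 CPM in YFP+, against 41.2, 80.6, 88.0 and 43.6 CPM in YFP- replicates 1 to 4. YFP- replicates 2 and 3 were highest for both the epithelial sum and Pdgfa. In YFP- replicates 1 and 4 Pdgfa had 19.1 and 13.0 CPM, at epithelial sums of 41.2 and 43.6 CPM. In YFP+ replicate 1, Pdgfa had 17.5 CPM at an epithelial sum of 27.7 CPM. Lgals4, the most abundant epithelial gene, averaged 15.4 ± 2.17 CPM in YFP+, against 17.6 ± 0.482 CPM in YFP- (SD, n = 4 each), and did not pass (edgeR's adjusted p = 0.346). It made up most of the epithelial sum in YFP+. Pigr, the next most abundant, averaged 1.66 ± 0.859 CPM in YFP+, against 13.1 ± 5.91 CPM in YFP- (SD, n = 4 each). Its log2 fold change was -2.94 (edgeR's adjusted p = 0.0034). The part of epithelial RNA in the Pdgfa result was not tested. No epithelial marker was at 0 in all libraries.

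Pdgfa (ENSMUSG00000025856) lies on the minus strand of chromosome 5 from 138976014 to 138997370. It shares 26.1% of its exonic bases with 6330403L08Rik on the opposite strand, and the strand setting of the counting is not given in the sources used here, so its counts are uncertain to that extent. 6330403L08Rik itself ran from 4.64 to 8.43 CPM in YFP+, against 5.11 to 6.59 CPM in YFP- (log2 fold change 0.15, edgeR's adjusted p = 0.749).

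Pdgfb, which endothelium makes to recruit pericytes, was scarce in both fractions and nearly missing from YFP+. YFP+ replicates 1 to 4 held 3, 1, 8 and 33 counts, or 0.112, 0.0411, 0.262 and 1.14 CPM, against 111, 246, 90 and 107 counts, or 4.91, 10.3, 3.89 and 3.88 CPM, in YFP-. The groups did not overlap, a separation with YFP+ lower that 5.86% of tested genes showed. Pdgfb entered the test through its YFP- libraries, as given below, so its separation was partly set by the filter. The share is therefore no measure of how unusual it is. YFP+ replicate 4 stood above the other YFP+ libraries, and YFP- replicate 2 above the other YFP- libraries. Within pairs 1 to 4 Pdgfb was 43.9, 250.5, 14.8 and 3.39 times lower in YFP+, with exact 95% binomial intervals of 14.6 to 216, 44.5 to 9934, 7.21 to 35.4 and 2.28 to 5.18 times that cover counting error only. The pairs thus gave one direction and very unequal sizes.

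Whether Pdgfb passed depended on the method. The log2 fold change with the pairing was -4.07 (SE 0.92, edgeR's adjusted p = 0.0555), just over the threshold. Without the pairing it was -3.84 (SE 0.76, edgeR's adjusted p = 0.0211). DESeq2 and limma-voom, both with the pairing, gave adjusted p of 2.29e-04 and 2.65e-04. With the pairing in edgeR, Pdgfb passed without YFP+ replicate 2 (0.00102), YFP+ replicate 4 (1.03e-06), YFP- replicate 2 (2.05e-04) or YFP- replicate 4 (1.83e-06), and did not pass without a library numbered 1 or 3. In the authors' deposited table its log2 fold change is -4.571 with an adjusted p of 2.22e-04. There Pdgfrb (0.298), Pdgfa (-0.712), Pdgfc (-0.504) and Pdgfd (-0.289) also have an adjusted p under 0.05, and Pdgfra (-0.025) does not. Pdgfb passed the filter on low counts, 0.397 CPM in at least 4 libraries, through all 4 YFP- libraries and only 1 of YFP+, so a tested gene of this kind had to differ between the groups. Pdgfb (ENSMUSG00000000489) lies on the minus strand of chromosome 15 from 79995874 to 80014977.

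Glial and neuronal markers were lower in YFP+ beside Pdgfb, and endothelial markers were mixed. All 7 enteric glia genes were lower, with or without the pairing. Their sum was 8.31, 10.4, 9.96 and 9.98 CPM in YFP+ replicates 1 to 4, against 132, 191, 118 and 126 CPM in YFP-. YFP- replicate 2 was the highest for Pdgfb and the glial sum. It was also the highest for the neuronal sum (7.75 CPM) and for lists of other cells, such as subepithelial fibroblasts (898 CPM). Endothelial genes summed to 44.4 to 57.8 CPM in YFP+, against 62.5 to 95.2 CPM in YFP-, and Pecam1, Tek and Plvap were lower among 7 tested, 1 of them also without the pairing. Much of that sum was Tek, at 27.3 ± 4.66 CPM in YFP+, against 46.4 ± 10.4 CPM in YFP- (SD, n = 4 each). Vwf, Tie1, Cdh5 and Kdr had log2 fold changes of 0.30, 0.50, -0.47 and -0.35 (SE 0.21, 0.57, 0.53 and 0.49) and did not pass. Both tested neuronal genes were lower, 1 of them also without the pairing. Their list summed to 0.329 to 0.381 CPM in YFP+, against 1.46, 7.75, 1.9 and 1.45 CPM in YFP- replicates 1 to 4. No glial, endothelial or neuronal marker was at 0 in all libraries, and the part of these cells in the Pdgfb difference was not tested.

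**Figure D3:**
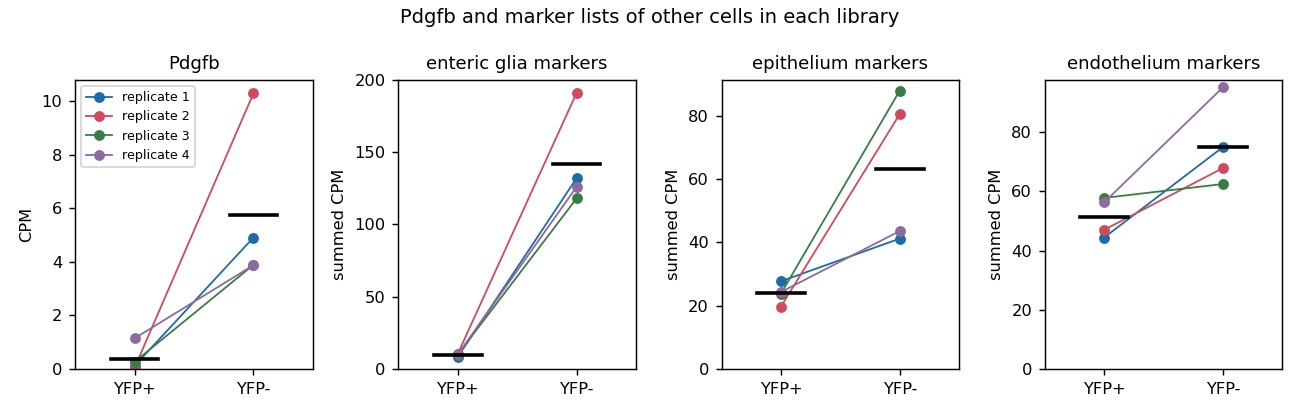
CPM of Pdgfb and summed CPM of the marker lists of enteric glia, epithelium and endothelium in the 4 YFP+ and 4 YFP- libraries, with lines joining equal replicate numbers and black bars at group means. YFP- replicate 2 is the highest library for Pdgfb (10.3 CPM) and for glia (191 CPM). The epithelial sum is highest in YFP- replicate 3 (88 CPM) and the endothelial sum in YFP- replicate 4 (95.2 CPM). Neuronal markers, not drawn, were also highest in YFP- replicate 2 (7.75 CPM).

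Levels were compared between genes in TPM, counts scaled by the exonic length in GENCODE M21 and then by library. The order of mean TPM was the same in both fractions: Pdgfra, Pdgfrb, Pdgfd, Pdgfa, Pdgfc and Pdgfb. Pdgfra averaged 148 ± 15.4 TPM in YFP+ and 155 ± 16.2 TPM in YFP-, and Pdgfrb 78.5 ± 4.81 TPM in YFP+ and 65.7 ± 5.69 TPM in YFP- (SD, n = 4 each). Pdgfd averaged 31.6 ± 4.08 TPM in YFP+ and 40.0 ± 7.89 TPM in YFP- (SD, n = 4 each). Neighbours in this order down to Pdgfd and from Pdgfd to Pdgfa were apart in every library. Pdgfa and Pdgfc overlapped in both fractions, at 5.70 ± 1.99 and 4.06 ± 0.880 TPM in YFP+ and 9.62 ± 3.16 and 6.03 ± 1.74 TPM in YFP- (SD, n = 4 each). Pdgfb averaged 0.128 ± 0.161 TPM in YFP+, below every Pdgfc value there, and 2.05 ± 1.17 TPM in YFP- (SD, n = 4 each), where it overlapped Pdgfc across libraries but was lower within each.

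Receptor RNA thus exceeded ligand RNA per length in both fractions. The 4 ligand genes together came to 42.2, 44.7, 36.1 and 42.9 TPM in YFP+ replicates 1 to 4, against 44.6, 73.6, 60.3 and 52.2 TPM in YFP-. Pdgfd made up 72.1%, 77.3%, 72.8% and 81.8% of this sum in YFP+ replicates 1 to 4, against 70.3%, 68.6%, 64.6% and 74.9% in YFP-. Pdgfb made up 0.0313% to 0.849% in YFP+ and 2.54% to 5.16% in YFP-.

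**Figure D4:**
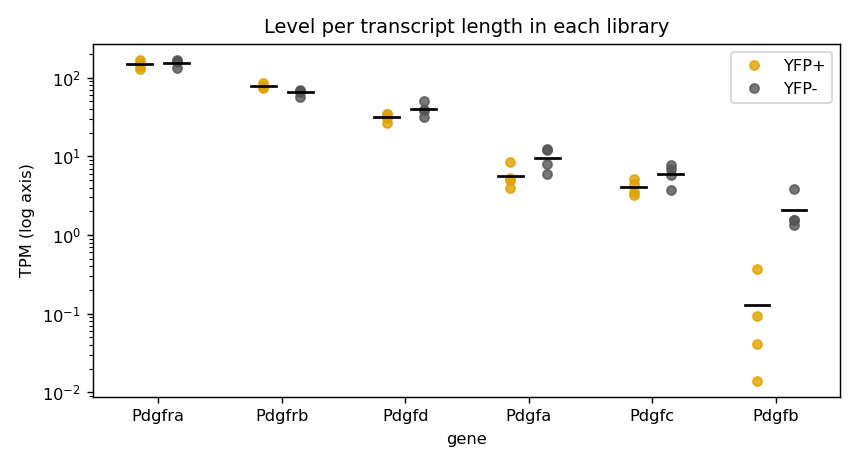
TPM (logarithmic axis) of the 6 genes in order of their mean, with 4 YFP+ libraries left of 4 YFP- libraries and black bars at the means. Both receptors lie above every ligand, and Pdgfb in YFP+ falls between 0.014 and 0.364 TPM.

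Other genes of the pathway were followed in 5 lists. Of 66 genes 64 were tested, 4 rose and 17 fell, and 43 did not pass, with a median log2 fold change of -0.04 against 0.01 over all tested genes, of which 3.65% rose and 7.85% fell. The count of each list reads against those shares. Of the 17 that fell, 9 were growth factor induced genes, a list chosen with an earlier fall of early-response genes in these libraries known. The pooled count of falls is therefore no independent result. Without the pairing 2 rose and 7 fell, where 0.917% and 3.34% of all tested genes did. The number that rose was also 2 without YFP+ replicate 1, YFP+ replicate 3, YFP- replicate 1 or YFP- replicate 3.

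Of 9 genes that process or bind the ligands, 1 rose and 2 fell. Plat, the tissue plasminogen activator that cuts latent PDGF-C, had 61.8 ± 13.2 CPM in YFP+, against 101 ± 12.4 CPM in YFP- (SD, n = 4 each). Its groups did not overlap (48.5 to 74.1 CPM in YFP+, 85.4 to 112 CPM in YFP-), and its log2 fold change was -0.72 (SE 0.07, edgeR's adjusted p = 5.48e-08, or 0.0133 without the pairing). Plat fell in the same comparison as its substrate gene Pdgfc. Sparc, a matrix protein that binds PDGF-B, fell (-0.19, edgeR's adjusted p = 0.00882), and Nrp1, a co-receptor of several growth factors, rose (0.19, edgeR's adjusted p = 0.0132). Both calls were lost without the pairing, with adjusted p of 0.281 and 0.388. Plau and St14, proteases that activate PDGF-D and are named here after their values were seen, did not pass. Plau averaged 5.01 ± 1.54 CPM in YFP+, against 7.14 ± 1.73 CPM in YFP-, and St14 0.661 ± 0.455 CPM in YFP+, against 1.74 ± 0.542 CPM in YFP- (SD, n = 4 each, edgeR's adjusted p of 0.140 and 0.0504). Furin, a convertase that trims PDGF-A and PDGF-B, had a log2 fold change of 0.15 (edgeR's adjusted p = 0.143) and is also named after its values were seen.

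Of 26 genes of the relay downstream of the receptors, 1 rose and 4 fell. Nck2, an adaptor that docks on phosphorylated PDGF receptors, rose to 72.2 to 83.1 CPM in YFP+, against 55.3 to 61.8 CPM in YFP-, a log2 fold change of 0.38 (SE 0.07, edgeR's adjusted p = 3.59e-04, or 0.0117 without the pairing). Stat3, a transcription factor, and Fyn, a Src-family kinase, fell by 0.27 and 0.19 on the log2 scale (edgeR's adjusted p of 3.42e-04 and 0.0124), and lost their calls without the pairing (0.265 and 0.286). Gab1 and Pik3cb were the other genes that fell, and they too lost their calls without the pairing (edgeR's adjusted p of 0.22 and 0.155). The remaining 21, among them the adaptor Grb2 and the phosphatase Ptpn11, did not pass, and the list median was 0.00.

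Of 13 genes of receptor turnover and feedback, 1 rose and 2 fell. Spry1, an inhibitor of receptor tyrosine kinase signalling, averaged 68.4 ± 10.5 CPM in YFP+, against 50.2 ± 6.33 CPM in YFP- (SD, n = 4 each). The log2 fold change was 0.44 (edgeR's adjusted p = 7.18e-05, or 0.0468 without the pairing). Ptprj, a phosphatase that acts on PDGFRβ, averaged 56.7 ± 6.66 CPM in YFP+, against 76.3 ± 12.0 CPM in YFP- (SD, n = 4 each). The log2 fold change was -0.42 (edgeR's adjusted p = 1.37e-04, or 0.0446 without the pairing). Cblb, a ubiquitin ligase, fell (-0.27, edgeR's adjusted p = 0.00549), a call lost without the pairing (0.667).

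Genes that growth factors switch on had the largest share of falls among the 5 lists. Of 11 tested, 9 fell and 0 rose, or 5 without the pairing, with a list median of -0.36. Fosb, a transcription factor of the AP-1 family, ranged from 833 to 1055 CPM in YFP+, against 1232 to 1641 CPM in YFP-, a log2 fold change of -0.50 (edgeR's adjusted p = 9.11e-08). Fos fell by 0.41 (edgeR's adjusted p = 4.15e-07), and Myc, Egr1, Jun, Junb, Thbs1 and the classical PDGF-induced chemokine genes Ccl2 and Cxcl1 also fell. Ccnd1 and Has2, named after their values were seen, had log2 fold changes of 0.29 and 0.12 and did not pass (edgeR's adjusted p of 0.0757 and 0.504). These genes respond to many stimuli besides PDGF, and they were chosen with an earlier fall of early-response genes in these libraries known.

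Among the other receptors of the PDGF receptor class and their ligands, Kitl, the ligand of KIT, rose among 5 tested (0.26, edgeR's adjusted p = 0.0219, or 0.192 without the pairing). Csf1 and Il34, ligands of the receptor CSF1R that are named after their values were seen, had log2 fold changes of 0.06 and 0.15 and did not pass (edgeR's adjusted p of 0.571 and 0.460). The receptor genes Kit and Csf1r were at most 5.15 CPM in every library, and Flt3 and its ligand gene were too low to test.

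**Figure D5:**
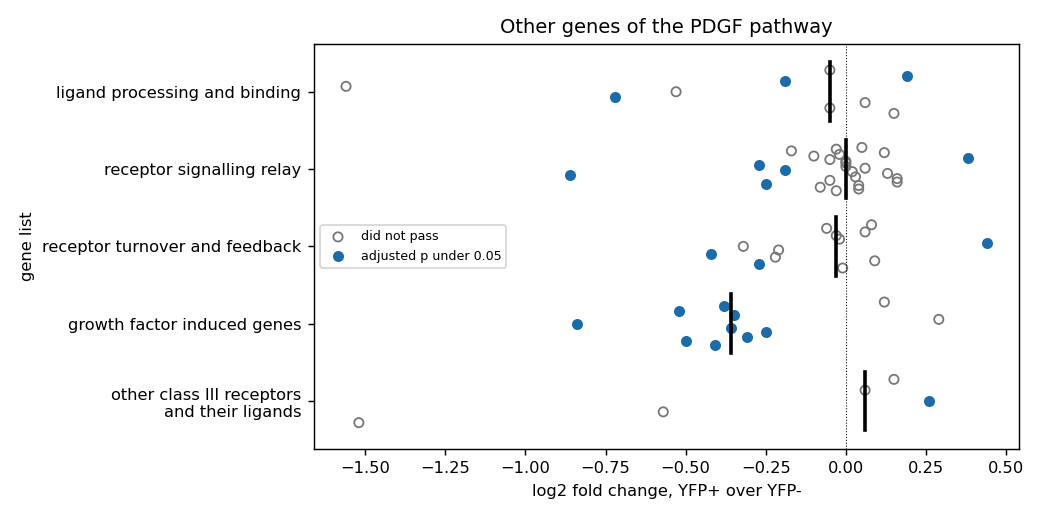
Log2 fold change (YFP+ over YFP-) of each tested gene in the 5 pathway lists, filled where the adjusted p was under 0.05, with a black bar at each list median. The growth factor induced genes have 9 filled points left of 0 and a median of -0.36, while the other medians lie between -0.05 and 0.06.

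For each member the genes of most similar profile were sought among 8633 protein-coding genes, as the smallest root mean square difference of log2 CPM centred over the 8 libraries. Pdgfc came closest to Fgf7, a fibroblast growth factor for epithelium, at 0.12, and Fgf7 had a log2 fold change of -0.61 (edgeR's adjusted p = 3.16e-05). Pdgfb came closest to Gfra1, a receptor of the neurotrophic factor GDNF, at 1.02, and to Slc35f1 at 1.08. Gfra1 averaged 1.59 CPM in YFP+, against 31.5 CPM in YFP-, and Slc35f1 1.71 CPM in YFP+, against 47.2 CPM in YFP-. Pdgfa came closest to Itpk1 at 0.20 and Zbtb7c at 0.23, and Pdgfd to Pitpnc1 and Gxylt2 at 0.08 each. The second gene for Pdgfc was Txnrd3 at 0.12. Pdgfrb lay within 0.04 of Josd1 and 0.06 of the kinase gene Tyk2, and Pdgfra within 0.03 of Zfp280d and 0.06 of Otud7b. Each distance reads against the member's own root mean square deviation from its mean. That was 0.12 for Pdgfra, 0.20 for Pdgfrb, 0.50 for Pdgfa, 2.72 for Pdgfb, 0.39 for Pdgfc and 0.26 for Pdgfd. These distances are a description over 8 libraries, whose depth and composition every gene shares.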

How the data were processed

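The deposited values are raw counts, 1 column per library. The submitters' processing notes list STAR 2.7.3a and featureCounts 2.0.1, beside cutadapt 3.4 and DESeq2, and the build GRCm38 (mm10). The strand setting is not given in the sources used here, though the kit, per the labels, keeps strand. The authors' deposited table also holds a log2 fold change and p-values for each gene, quoted only where named.

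Tests were run with edgeR 4.0.16 in R 4.3.3 (filterByExpr, TMM, quasi-likelihood F test, robust) on 16354 of 53801 genes, with the replicate number as a block and Benjamini-Hochberg adjustment at 0.05. SE is the absolute log2 fold change over the square root of F. CPM use TMM-scaled totals. Deviations from group means correlated at 0.38 to 0.64 across 5258 genes for libraries of equal number and at -0.42 to 0.05 otherwise, so the numbers were taken as pairs, although no label says what they share. Library pairs of a group differed beyond sampling noise. The binomial intervals of the Pdgfb pairs and the floors cover counting error only. The intervals of the log2 fold changes rest on the SE of the test, which includes variation among libraries. GENCODE M21 held 53706 of the identifiers.

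Members and lists were chosen with earlier results of these data known. Named genes were the members, up to 2 called genes per direction from each pathway list by smallest p (else the most abundant), the 2 most abundant of each marker list where shown beside a result, and the 2 most similar profiles per member, sought where the mean reached 10 CPM and no library was at 0 (the last condition was added after the data were seen); other genes were named after their values were seen, or as members of a count. Alternatives were no block, other scalings and filters, DESeq2 1.42.0, limma-voom 3.58.1, leaving out ribosomal RNA and mitochondrial genes, and each library left out.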

Additional observations from a re-analysis of the deposited data

Results flagged for a closer look

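Pdgfb in YFP- replicate 2, at 10.3 CPM, stood apart from the other 3 YFP- libraries, which lay between 3.88 and 4.91 CPM. It was the 1 of 12 sets of 4 values with such a library, where chance gives about 1 in 20. Without this library the log2 fold change of Pdgfb was -3.39 (edgeR adjusted p = 2.05e-04).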

How the results depend on the processing

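Directions held for Pdgfrb, Pdgfa, Pdgfb, Pdgfc and Pdgfd in all 16 alternatives, while Pdgfra, which was never called, ran from -0.08 to 0.03. Without the replicate block, Pdgfrb (0.28), Pdgfa (-0.72), Pdgfc (-0.51) and Pdgfd (-0.29) lost their calls and Pdgfb (-3.84) gained one. The counts over all genes were then 150 higher and 547 lower, and those of the pathway lists 2 and 7. The block is thus what most of the calls rest on. Pdgfb also passed with no filter (-4.08), with a filter of 1 CPM in 4 libraries (-4.07), by DESeq2 (-4.57) and by limma-voom (-3.85), and the cause was not tested. With each library left out in turn, the log2 fold changes ran from 0.21 to 0.35 for Pdgfrb, -0.92 to -0.55 for Pdgfa, -5.29 to -3.31 for Pdgfb, -0.58 to -0.45 for Pdgfc and -0.38 to -0.24 for Pdgfd. Pdgfb passed in 4 of those 8 fits, without either library numbered 2 or 4. With the block, leaving out a library also takes its partner out of the comparison. The counts over all genes then ran from 330 to 511 higher and 830 to 1126 lower, lowest without YFP+ replicate 3 and YFP- replicate 3, and those of the pathway lists from 2 to 4 and 12 to 17. The receptor ratio ran from -0.41 to -0.22, and as a replicate block, by sign flips within the 4 pairs, it stayed at -0.32 in a test that cannot pass the threshold with 4 pairs. Depth limits Pdgfb most, with 1 to 33 counts per YFP+ library.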
